A study of Homo sapiens with 6 samples.

Results

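The vesicle coat, tethering and sorting genes are described here in the triple-negative breast cancer line MDA-MB-231, of human origin, after 24 h with 0.5 µM shikonin or without treatment. They were taken as the rows of the authors' deposited table whose gene symbol is SEC, TMED, TRAPPC, VPS or SNX followed by a digit, COPA, COPB, COPE, COPG or COPZ with or without a digit, or a subunit name of adaptor complexes AP1 to AP4 built on the letters A, B, G, M or S. That rule found 72 of the 7150 rows. RNA-seq libraries were made from 3 control and 3 shikonin samples, all labelled WT and grown in DMEM with serum and antibiotics. Shikonin is a red plant pigment of the naphthoquinone class. The dose is read as micromolar, although its unit is spelled μm in the labels, and the controls carry the treatment label none, with no vehicle named. Separate cultures are not mentioned for the 3 libraries of either group. The p-values therefore cover only the variation among these libraries, possibly technical.

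The table holds 1 comparison, shikonin against control, and 0 columns that give single samples. The level in each library and its depth are therefore not known here. It lists only genes with an adjusted p below 0.05 by the authors' DESeq2 test and a fold above 1.5, so each of the 72 genes had passed both thresholds, and their number passing is no result. Positive fold changes carry the authors' mark for up and are read as higher in shikonin. About 14252 genes were tested, as recovered from p, adjusted p and rank, of which 50.2% were listed. Under the same name rule GENCODE 29 and the table together hold 151 protein-coding genes, so 79 were not listed, and these were either not past the thresholds or not tested. In place of values per library, each gene is given below with the mean normalized count implied in each group, solved from the authors' mean over all libraries and the fold with equal weight on 3 and 3 libraries. Folds carry a 95% normal interval computed from the listed standard error. VIM, a mesenchymal marker of this line, had, in the authors' deposited table, a mean of 64429 normalized counts and a log2 fold change of 0.80. Of the line's other markers, ZEB1 and EGFR were at -0.75 and -2.58 on that log2 scale of the authors' deposited table, and CD44, AXL and MSN were not listed. Of the markers of other cells, PTPRC was not listed. The endothelial marker PECAM1 and the liver marker ALB had log2 fold changes of 2.03 and 4.72 in the authors' deposited table, from implied control means of 69.3 and 0.88 normalized counts, and their part in the results was not tested. For 24 of the 72 genes, over 5% of exon bases are shared with another annotated gene on either strand, or a near-identical copy exists. Whether the authors counted by strand is not known here, so these 24 values are uncertain. Besides the genes for which it is given below, they include VPS37B, VPS33A, AP3S2, AP3M1 and SEC31B, with 18.4% to 27.9% of exon bases shared. The rest share 5.2% to 11.8%: AP3S1, AP4B1, TRAPPC5, VPS51, SNX33, COPE, TRAPPC1, SNX17, SNX30, SEC61A1, TRAPPC8 and AP3B1.

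Secretory proteins enter the endoplasmic reticulum (ER) through the SEC61 channel, leave it in vesicles coated by COPII and are returned from the Golgi in vesicles coated by COPI. Tethering complexes such as TRAPP, HOPS and GARP catch arriving vesicles before membranes fuse. At the trans-Golgi and in endosomes, adaptor complexes, retromer, sorting nexins and the ESCRT machinery choose which cargo is recycled and which is sent to the lysosome. Most of these machines are assembled from several different subunits, some small and some very large, and their messages cover a wide range of lengths.

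Of the 72 genes, 30 were higher and 42 lower in shikonin-treated cells, so that 41.7% were higher, where 50.8% of all listed genes were higher and 49.2% lower. With the implied totals of all listed genes set equal in both groups, every log2 fold change is lowered by 0.39. At that setting 15 genes stayed above the fold threshold on the higher side and 42 on the lower side, the 42 by construction. That is 26.3% higher, against 40.5% of all listed genes kept by the fold alone. Genes that were tested but not listed are outside the implied totals, so the shift of 0.39 is no ratio of library totals. The median log2 fold change was -0.73, beside 0.60 over all listed genes, both from the authors' deposited table. No listed gene lies within 1.5-fold, so each median falls on the side that holds more genes. The distance between these medians therefore largely restates the shares higher and lower. At least 2-fold differences were found in 41 of the 72, or 56.9%, against 61.9% of all listed genes, with 14 higher and 27 lower, beside 32.7% and 29.2% of all listed genes higher and lower by as much. The interval of the fold lay wholly beyond 2-fold in 22 genes, 6 higher and 16 lower, or 30.6% of the 72 against 31.3% of all listed genes. Higher by this measure were 16.8% of all listed genes, and lower 14.5%. The median of the higher genes was 0.98, beside 1.22 for all listed higher genes, and that of the lower genes -1.20, beside -1.11, on the log2 scale of the authors' deposited table. Because counts are relative to each library, fewer cells and less RNA per cell cannot be told apart.

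**Figure D1:**
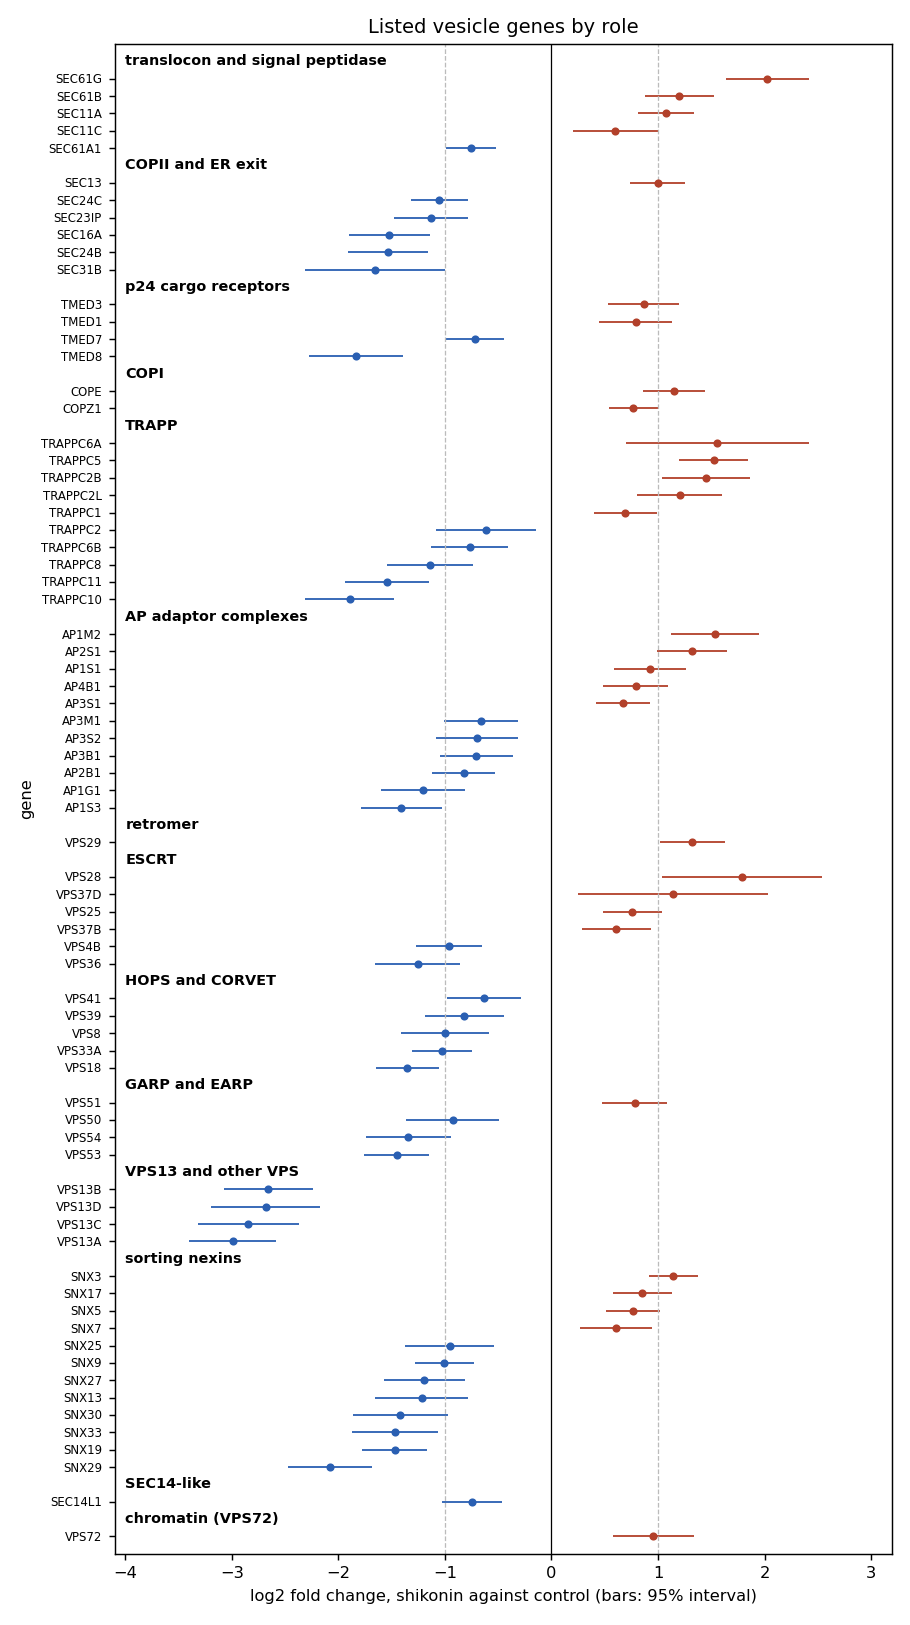
The log2 fold change of shikonin against control for each of the 72 listed genes, ordered by role, with bars for the 95% interval and dashed lines at 2-fold. The 4 VPS13 genes lie farthest to the lower side, between -2.66 and -2.99, and SEC61G lies farthest to the higher side at 2.03.

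Promoters are shown for 5 genes, chosen after their values were seen: COPE, COPZ1 and AP2S1, coat and adaptor subunits that were higher, and TRAPPC10 and VPS54, tether subunits that were lower. The sequences are from RefSeq (GRCh38.p14), 200 bases from 250 to 51 bases before the start annotated there, 5′ to 3′ on the strand of the gene. None of them overlaps an exon in GENCODE 29, where a gene can start elsewhere. The windows of COPZ1 and AP2S1 lie inside the GENCODE genes, which start at 54301202 (plus) and 46850992 (minus). That of VPS54 lies farther upstream of its GENCODE start, at 64019072. Capitals mark the CCAAT box, searched as CCAAT on both strands, so that it reads ATTGG on the other. The windows are chr19:18919438-18919637 (minus strand), chr12:54324881-54325080 (plus), chr19:46850365-46850564 (minus), chr21:44012059-44012258 (plus) and chr2:64019479-64019678 (minus).
COPE: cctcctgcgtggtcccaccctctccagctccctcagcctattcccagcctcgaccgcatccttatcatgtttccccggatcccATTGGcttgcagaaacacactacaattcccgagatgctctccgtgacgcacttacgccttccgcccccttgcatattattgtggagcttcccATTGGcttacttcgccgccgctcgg
COPZ1: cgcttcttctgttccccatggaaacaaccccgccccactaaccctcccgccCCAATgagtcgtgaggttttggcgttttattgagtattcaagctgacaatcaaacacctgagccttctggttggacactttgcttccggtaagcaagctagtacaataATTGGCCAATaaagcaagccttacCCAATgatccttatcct
AP2S1: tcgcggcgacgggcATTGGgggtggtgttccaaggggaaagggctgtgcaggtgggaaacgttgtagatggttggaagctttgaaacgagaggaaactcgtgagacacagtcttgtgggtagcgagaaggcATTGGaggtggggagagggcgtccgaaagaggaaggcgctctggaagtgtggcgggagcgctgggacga
TRAPPC10: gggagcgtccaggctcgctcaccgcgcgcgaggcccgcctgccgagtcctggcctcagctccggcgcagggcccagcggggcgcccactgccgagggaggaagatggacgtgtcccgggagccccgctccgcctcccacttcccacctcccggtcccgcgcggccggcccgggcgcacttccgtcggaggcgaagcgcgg
VPS54: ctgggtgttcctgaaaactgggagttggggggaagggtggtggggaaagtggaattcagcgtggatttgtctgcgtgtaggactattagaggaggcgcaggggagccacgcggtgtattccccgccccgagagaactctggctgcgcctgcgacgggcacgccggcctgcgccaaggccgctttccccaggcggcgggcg

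The CCAAT box stands 2 times in the COPE window, 4 times in that of COPZ1, 2 times in that of AP2S1 and 0 times in those of TRAPPC10 and VPS54. Promoter entries matched 61 of the 72 genes by symbol. Over the 250 bases before each start, 15 of 27 higher genes (55.6%) and 7 of 34 lower genes (20.6%) held a CCAAT box in at least 1 window, against 37.0% of 27305 genes with an entry. Among all listed genes the shares were 45.0% of higher and 39.3% of lower genes. The 5 genes shown all follow the split by direction, but others do not. SEC13, which was higher, held no CCAAT box there, and VPS13D, which was lower, held at least 1. The GC box, GGGCGG on either strand, was found in 77.8% of higher and 64.7% of lower genes of the 61, against 46.2% of all genes with an entry, 72.1% of all listed higher and 79.3% of all listed lower genes. The E-box, CACGTG, was found in 3 of 27 (11.1%) and 3 of 34 (8.8%), against 7.7% of all genes with an entry. Its shares among all listed higher and lower genes were 11.0% and 11.5%. TGACGTG, a core of unfolded protein response sites, was found in 1 of 27 (3.7%), SEC13, and 0 of 34. It was found in 2.1% of all genes with an entry and in 2.6% and 3.0% of all listed higher and lower genes. These motifs were searched after the direction of each gene was known, and a match is a description of the letters in the window.

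The SEC61 channel had subunits on both sides. SEC61G, the small gamma subunit, lies on chromosome 7 from 54752250 to 54759974 (GRCh38, GENCODE 29, 5 exons in the reference transcript, the longest of its principal transcripts) and had the largest increase of the 72 genes, from an implied 343 normalized counts in control to 1397 in shikonin. That is 4.07-fold (interval 3.11 to 5.34), for which the authors' deposited table gives 2.03 ± 0.20 (log2 fold change and standard error) with adjusted p = 6.09e-23. SEC61B, the small beta subunit, went from 1005 to 2309.9, or 2.30-fold higher (1.84 to 2.88). SEC61A1, which encodes the pore-forming alpha subunit, fell from 8768 to 5196, or 1.69-fold lower (1.44 to 1.98, with 7.81e-10 as its adjusted p in the authors' deposited table). The small subunits and the alpha subunit went opposite ways, though by the adjusted p threshold the interval of every listed gene excludes no change. SEC11A and SEC11C encode the alternative catalytic subunits of signal peptidase, which cuts the signal from entering proteins. SEC11A was 2.10-fold higher (1.75 to 2.52), and SEC11C 1.52-fold higher (1.15 to 2.00), the smallest increase of the 72 genes and just inside the threshold, which it missed at equal implied totals (0.21 on the log2 scale). SEC61A2, SEC62 and SEC63 were not listed.

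Of the COPII and ER exit genes 1 of 6 listed was higher and 5 were lower. SEC13, a cage protein that also serves in nuclear pores, went from 1917 to 3826 implied counts, or 2.00-fold higher (1.67 to 2.39). Its cage partner is SEC31, of which the listed paralog SEC31B was 3.16-fold lower (2.00 to 4.98) at a mean of only 77.7 normalized counts in the authors' deposited table. SEC24B and SEC24C, cargo-binding subunits of the inner coat, were both lower, by 2.90-fold (2.24 to 3.76) and 2.07-fold (1.72 to 2.49). SEC16A, the scaffold of ER exit sites, fell from 3701 to 1289.9, a 2.87-fold difference (2.20 to 3.74, with 6.30e-14 as its adjusted p in the authors' deposited table). SEC23IP, which binds the inner coat at these sites, was 2.19-fold lower (1.73 to 2.79). The other 9 genes of the group, among them SEC23A, SEC23B, SEC24A, SEC24D, SEC31A and SEC22B, were not listed. SEC24C shares 42.9% of its exon bases with a gene on the other strand, AC022400.8.

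In the COPI coat 2 of 8 annotated subunits were listed and both were higher. COPE, the epsilon subunit, on chromosome 19 from 18899514 to 18919397, went from 3277 to 7268 implied counts, 2.22-fold higher (1.82 to 2.71). COPZ1, the small zeta subunit, was 1.70-fold higher (1.45 to 2.00). With equal implied totals the log2 fold change of COPZ1 was 0.37, no longer past the fold threshold, while that of COPE was 0.76. The larger subunits COPA, COPB1, COPB2, COPG1 and COPG2 were not listed. The p24 proteins, which the TMED genes encode, are cargo receptors that cycle between the ER and the Golgi. TMED1 and TMED3 were 1.73-fold (1.36 to 2.19) and 1.82-fold (1.45 to 2.30) higher, but at equal implied totals their log2 values of 0.40 and 0.47 were short of the fold threshold. TMED7 was 1.65-fold lower (1.36 to 2.00), and TMED8, a divergent member, 3.57-fold lower (2.63 to 4.84). TMED1 shares 51.3% of its exon bases with DNM2 on the other strand, and TMED7 24.0% with the readthrough gene TMED7-TICAM2, which makes both values uncertain.

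The TRAPP tether was split evenly, with 5 of 10 listed genes higher and 5 lower. The higher genes encode small subunits of the shared core. TRAPPC5 had 2083 implied counts in control and 5981 in shikonin, 2.87-fold higher (2.30 to 3.58, with 2.03e-19 as its adjusted p in the authors' deposited table). TRAPPC2L was 2.30-fold (1.75 to 3.03) and TRAPPC1 1.62-fold (1.32 to 1.98) higher. Of the large subunits specific to TRAPPII or TRAPPIII, 3 were listed, and these were lower. TRAPPC10, specific to TRAPPII and located on chromosome 21 from 44012319 to 44106552, fell from 1191 to 321, or 3.71-fold (2.78 to 4.96, with 6.55e-18 as its adjusted p in the authors' deposited table). TRAPPC8 and TRAPPC11, specific to TRAPPIII, were 2.20-fold (1.66 to 2.92) and 2.92-fold (2.21 to 3.84) lower. Paralogs went opposite ways. TRAPPC6A was 2.94-fold higher (1.62 to 5.33) at a mean of 40.9 normalized counts in the authors' deposited table, and TRAPPC6B 1.70-fold lower (1.33 to 2.18), though 56.2% of TRAPPC6B exon bases lie opposite an antisense gene. TRAPPC2B was 2.73-fold higher (2.05 to 3.63) and TRAPPC2 1.53-fold lower (1.11 to 2.12), the smallest decrease of the 72 genes. TRAPPC2B is a single-exon copy of TRAPPC2, and their reference transcripts align over 497 nt with 98.2% identity, so reads from the shared stretch can be assigned to either and both values are uncertain. The other 6 TRAPP genes, TRAPPC3, TRAPPC3L, TRAPPC4, TRAPPC9, TRAPPC12 and TRAPPC13, were not listed. With equal implied totals TRAPPC1, at 0.30 on the log2 scale, was short of the fold threshold. TRAPPC1, TRAPPC2, TRAPPC2L and TRAPPC6B were picked with their values in view.

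**Figure D2:**
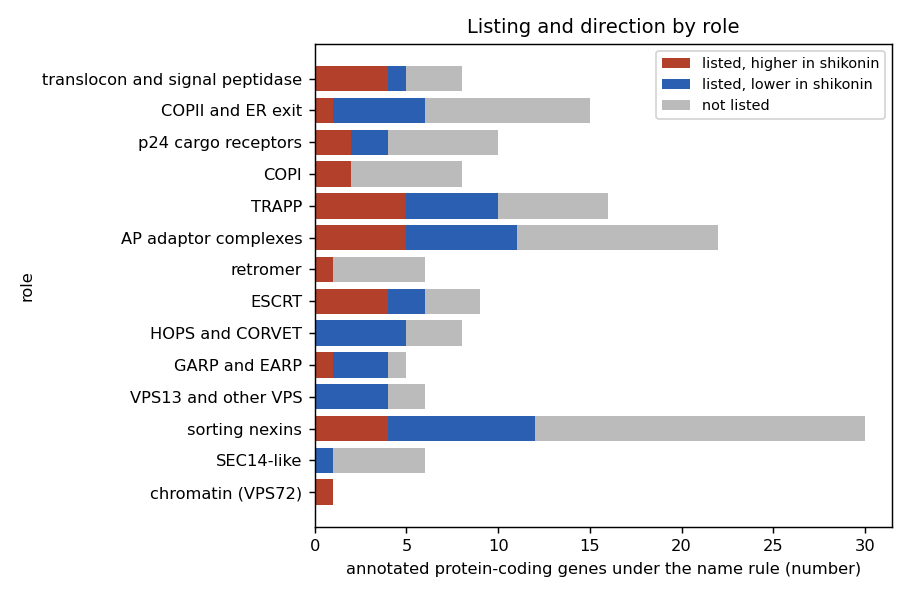
The number of annotated protein-coding genes under the name rule in each role, divided into listed and higher, listed and lower, and not listed. HOPS and CORVET genes and the VPS13 family have lower genes only among those listed, the COPI genes and retromer higher genes only, and TRAPP has 5 of each.

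Adaptor complexes are built from 4 subunits each, and 11 of the 22 annotated genes were listed, 5 higher and 6 lower. Among the small sigma subunits, AP2S1 went from 4198 to 10456 implied counts, 2.49-fold higher (1.98 to 3.13), and AP1S1 was 1.90-fold higher (log2 fold change 0.92 ± 0.17 in the authors' deposited table). AP3S1 was 1.59-fold higher (1.33 to 1.89), while its paralog AP3S2 was 1.62-fold lower (1.24 to 2.12). AP1S3 also went down, from 552 to 208, a 2.65-fold difference (2.04 to 3.44, with 1.52e-12 as its adjusted p in the authors' deposited table). With equal implied totals AP1S1 and AP3S1, at 0.53 and 0.27 on the log2 scale, were short of the fold threshold. Of the large subunits, AP1G1 was 2.31-fold (1.75 to 3.03), AP2B1 1.77-fold (1.44 to 2.17) and AP3B1 1.63-fold (1.29 to 2.06) lower. AP2B1, the beta subunit of the endocytic adaptor, fell from 13427 to 7580.2 implied counts while AP2S1 of the same complex rose. AP4B1, the beta subunit of an adaptor that works without clathrin, was 1.73-fold higher (1.40 to 2.13), but also short of the fold threshold at equal totals (0.39). Of the medium subunits, AP1M2, known from polarised epithelial cells, was 2.91-fold higher (2.18 to 3.87), and AP3M1 1.58-fold lower (1.24 to 2.01). All 3 epithelial markers looked at, EPCAM, KRT8 and KRT18, also had positive log2 fold changes in the authors' deposited table, at 1.10, 1.25 and 1.67, with implied control means of 80.8, 9454 and 4278 normalized counts. The mesenchymal marker VIM was also higher, as given above, and the part of these markers in the AP1M2 value was not tested. The AP3 and AP4 genes named here were chosen after their values were seen.

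Of the retromer genes 1 of 6 was listed, and of the ESCRT genes 6 of 9. VPS29, the small core subunit of retromer, which recycles cargo from endosomes, went from 1381 to 3449 implied counts, 2.50-fold higher (2.02 to 3.09, with 2.84e-16 as its adjusted p in the authors' deposited table). The other 5 retromer and retriever genes, VPS26A, VPS26B, VPS26C, VPS35 and VPS35L, were not listed. The ESCRT machinery sorts ubiquitin-tagged cargo into the interior of endosomes, and 4 of its 6 listed VPS genes were higher. ESCRT-I subunit genes were VPS37B at 1.52-fold (1.22 to 1.91), VPS37D at 2.20-fold (1.19 to 4.08) and VPS28 at 3.45-fold (2.05 to 5.82) higher. VPS28 and VPS37D rest on means of 60.5 and 43.1 normalized counts in the authors' deposited table, and their intervals are wide. In ESCRT-II, VPS25 was 1.69-fold higher (1.40 to 2.05) and VPS36 2.39-fold lower (1.81 to 3.14). VPS4B, an ATPase that takes ESCRT filaments apart, was 1.94-fold lower (1.57 to 2.41). With equal implied totals VPS25 and VPS37B, at 0.36 and 0.21 on the log2 scale, were short of the fold threshold, which leaves 2 ESCRT genes higher and 2 lower.

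Genes of the tethers that act at endosomes, lysosomes and the trans-Golgi were mostly lower, where 49.2% of all listed genes were lower. Of HOPS and CORVET, which tether late and early endosomes, 5 of 8 annotated genes were listed and the 5 were lower. VPS18, of the core common to both, fell from 903 to 353 implied counts, 2.56-fold lower (2.09 to 3.14, with 3.23e-18 as its adjusted p in the authors' deposited table). VPS33A, also of the core, was 2.04-fold lower (1.68 to 2.48). VPS8, found in CORVET, was 2.00-fold lower, from 448 to 224 implied counts (standard error 0.21 on the log2 scale in the authors' deposited table), and VPS39 and VPS41, found in HOPS, were 1.76-fold (1.37 to 2.28) and 1.56-fold (1.22 to 1.98) lower. Reference transcripts of the 5 HOPS and CORVET genes ran from 3895 to 5903 nt. Of all listed protein-coding genes, 32.0% were higher at 3294 to 4180 nt, 16.9% at 4181 to 5034 nt and 11.7% at 5036 to 6134 nt. The part of length in these counts was not tested. GARP and EARP tether vesicles from endosomes at the trans-Golgi and at recycling endosomes. VPS53, of both, fell from 1693 to 618, 2.74-fold lower (2.22 to 3.38), VPS54 of GARP was 2.54-fold (1.92 to 3.34) lower and VPS50 of EARP 1.90-fold (1.41 to 2.57) lower. VPS51, their common partner, went the other way and was 1.72-fold higher (1.39 to 2.13), but at equal implied totals its log2 value of 0.39 was short of the fold threshold.

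The VPS13 family had the largest decreases of the 72 genes. These genes encode very long proteins that form bridges along which lipids move between membranes, and inherited loss of single members is known to cause neurological disease. VPS13A, on chromosome 9 from 77177353 to 77421541, went from 917 implied counts in control to 115 in shikonin, 7.96-fold lower (5.99 to 10.6), with an adjusted p of 1.95e-44 in the authors' deposited table. VPS13C, on chromosome 15 from 61852389 to 62060473, went from 479 to 66.8, 7.18-fold lower (5.17 to 9.98). VPS13D, on chromosome 1 from 12230030 to 12512047, went from 1249 to 194, 6.43-fold lower (4.49 to 9.19). VPS13B went from 1134 to 179.9, 6.30-fold lower (4.73 to 8.40). The intervals of the 4 overlap one another and lie wholly beyond 4-fold. The reference transcripts of the 4 are 13300 to 16357 nt long with 62 to 83 exons. Among 76 other listed protein-coding genes in this range of length, 71 were lower, their median log2 fold change was -1.66, and 6 lay below VPS13B, the least changed of the family (log2 fold change -2.66), all from the authors' deposited table.

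Sorting nexins carry a lipid-binding PX domain and bend or mark endosomal membranes; 4 of the 12 listed were higher and 8 lower. SNX3, a partner of retromer in cargo recognition, went from 1730.2 to 3822 implied counts, 2.21-fold higher (1.88 to 2.59, with 3.89e-21 as its adjusted p in the authors' deposited table). SNX17, which returns integrins to the cell surface, was 1.80-fold higher (1.49 to 2.18), and SNX5, a membrane-bending BAR-domain nexin, 1.70-fold higher (1.43 to 2.02). With equal implied totals the log2 fold changes of SNX17 and SNX5 were 0.46 and 0.37, short of the fold threshold. SNX29, on chromosome 16 from 11976737 to 12574289, had the largest decrease of the nexins, from 581 to 137, 4.23-fold lower (3.21 to 5.56, with 1.76e-23 as its adjusted p in the authors' deposited table). SNX19 and SNX33 were 2.77-fold (2.24 to 3.43) and 2.76-fold (2.09 to 3.65) lower. SNX27, which links retromer to cargo through a PDZ domain, was 2.29-fold lower (1.76 to 2.98), and is named after its value was seen. The remaining lower nexins, SNX9, SNX13, SNX25 and SNX30, were 1.94 to 2.67-fold lower, and SNX7 was 1.52-fold higher (1.20 to 1.92), a change short of the threshold at equal totals (0.21). SNX1, SNX2, SNX4 and SNX6 were among the 18 nexin genes not listed.

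A pair of genes fits the name rule but not the theme. VPS72 encodes a subunit of chromatin complexes that place a histone variant, and was 1.94-fold higher (1.49 to 2.53), with 40.5% of its exon bases shared with TMOD4 and a log2 value of 0.56, short of the fold threshold, at equal implied totals. SEC14L1, which encodes a lipid-binding protein, was 1.68-fold lower (1.38 to 2.03).

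Direction went with transcript length among the 72 genes, as among all listed genes. The 30 higher genes had reference transcripts with a median of 1576 nt and 6 exons, and the 42 lower genes a median of 4907 nt and 20.5 exons. The coding part had a median of 578 nt in higher and 2594 nt in lower genes. Of the 24 genes with the shortest transcripts, 545 to 1897 nt, 23 were higher and 1, AP1S3, was lower. The 24 longest, 4612 to 16357 nt, held 1 higher gene, TRAPPC5, and 23 lower. Spearman's rho between length and log2 fold change was -0.79 across the 72 genes, which share the same libraries and are not independent replicates, and -0.70 across the 6920 listed protein-coding genes. With the transcript of longest coding sequence in each gene, rho was -0.80 and -0.70. Of the 72 genes, 66 (91.7%) had the sign of the median of all listed genes in their length decile, against 85.8% of listed protein-coding genes. The part of length in the directions was not tested.

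**Figure D3:**
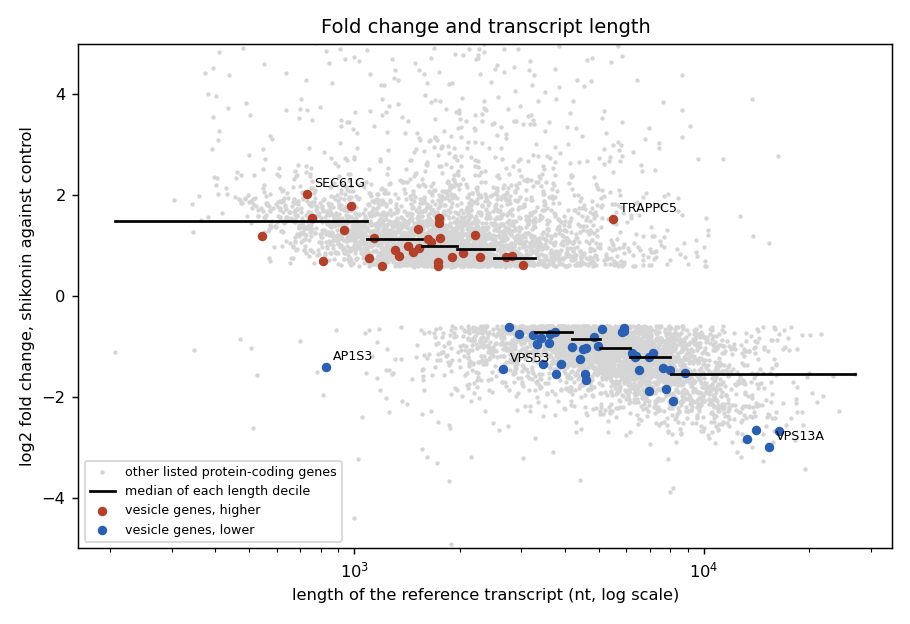
The log2 fold change of shikonin against control plotted against the length of the reference transcript (log scale) for the 72 genes and the other listed protein-coding genes, with a black line for the median of each length decile. Higher genes lie at 3028 nt or less apart from TRAPPC5, lower genes at 2656 nt or more apart from AP1S3, and 105 genes beyond ±5 are outside the plot.

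The 6 genes that went against their length decile were TRAPPC5, AP1S3, VPS53, TRAPPC2, TRAPPC6B and SEC14L1. TRAPPC5 has a reference transcript of 5498 nt, but its 4 annotated coding transcripts run from 411 to 5498 nt and its coding part has 564 nt, so its place by length depends on the transcript used. AP1S3 has a reference transcript of 830 nt among coding transcripts of 499 to 2515 nt, and stood at percentile 1.30 of fold change in a decile with a median log2 fold change of 1.48. VPS53 has one of 2656 nt among coding transcripts of 585 to 13106 nt, and stood at percentile 5.78 of its decile. The VPS13 genes stood at percentiles 1.16 to 4.49 of the longest decile, which starts at 8026 nt. SEC61G stood at percentile 80.4 and COPE at 50.7 of theirs. GC content of the reference transcript had a median of 55.9% in higher and 43.0% in lower genes, beside 52.6% and 46.5% in all listed higher and lower genes.

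Partner genes of the same machines outside the name rule were taken from 7 lists of 137 genes in all. Of these, 67 were listed. Of all genes tested 50.2% were listed, but how many of the 137 were tested is not known here. Of the 67, 28 were higher and 39 lower, where 50.8% of all listed genes were higher. Their median was -0.74 on the log2 scale of the authors' deposited table. These lists were chosen with earlier results known. Of the golgins and the COG, exocyst and Dsl1 tethers 13 of 14 listed genes were lower, GOLGA4 by 3.89-fold (3.04 to 4.97), and COG4 1.75-fold higher (1.46 to 2.11). Reference transcripts of the 14 ran from 2495 nt (COG8) to 11187 nt (GOLGB1). By length decile, the share higher among all listed protein-coding genes fell from 81.3% at 1967 to 2503 nt to 4.49% from 8026 nt. The part of length in the tether counts was not tested. Among coat and adaptor partners 2 were higher and 8 lower. The higher pair were the clathrin light chains, CLTA at 2.05-fold (1.71 to 2.46) and CLTB at 1.92-fold (1.55 to 2.38), while the heavy chain CLTC was 2.00-fold lower (1.60 to 2.51) and AP4E1, the epsilon subunit of AP4 and partner of AP4B1, 4.06-fold lower (2.85 to 5.79). CLTB and CLTC were picked with their values in view. ARF5, a small GTPase that recruits coats, was 2.07-fold higher (1.66 to 2.59), and ARFGEF1, an exchange factor for such GTPases, 4.98-fold lower (3.53 to 7.01), in a list with 2 higher and 4 lower.

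Of the other 4 partner lists, 3 had more higher than lower genes, where 50.8% of all listed genes were higher. ER-Golgi cargo receptors had 5 higher and 1 lower, from KDELR3, a receptor that retrieves ER proteins, at 2.25-fold higher (1.78 to 2.83) to LMAN1, the ERGIC-53 lectin, at 1.71-fold lower (1.35 to 2.16). SNAREs and fusion factors between ER and Golgi also had 5 higher and 2 lower, from BNIP1 at 2.65-fold higher (1.98 to 3.55) to STX17 at 2.47-fold lower (1.92 to 3.17). ESCRT and retromer partners were 7 higher and 8 lower, with WASHC3, a small WASH complex subunit, 2.70-fold higher (2.11 to 3.45) and MVB12B, an ESCRT-I subunit, 4.71-fold lower (3.40 to 6.53). Partners of the translocon were 6 higher and 3 lower. SSR4, a translocon-associated protein, was 2.64-fold higher (2.14 to 3.27), and TRAM2, a multipass protein of the translocon, 3.17-fold lower (2.55 to 3.95). Higher genes of the cargo receptor, SNARE and translocon lists had reference transcripts of 832 to 4125 nt, and lower genes of 2713 to 9669 nt. Of all listed protein-coding genes, 96.8% were higher at 1088 to 1557 nt, 32.0% at 3294 to 4180 nt and 4.49% from 8026 nt. The part of length in these counts was not tested.

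**Figure D4:**
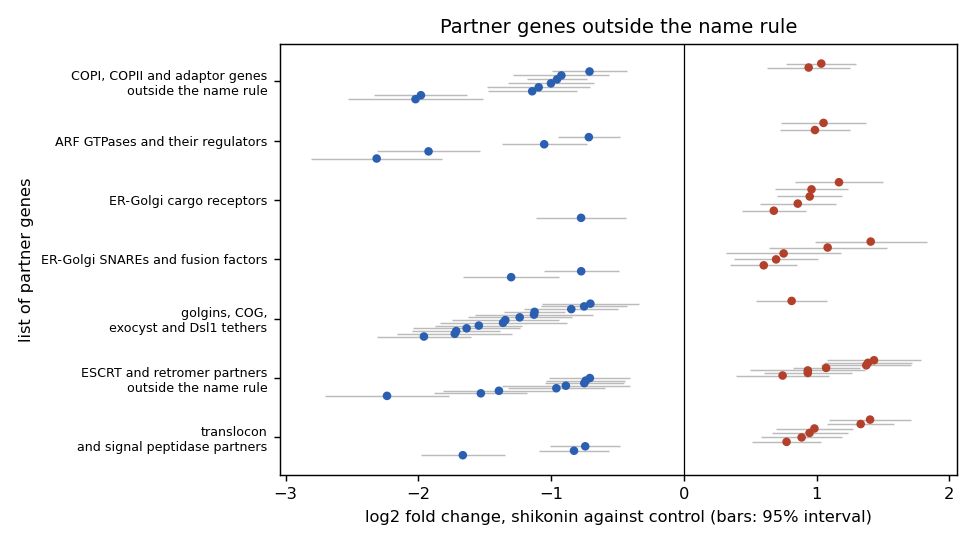
The log2 fold change of shikonin against control for the 67 listed partner genes in 7 lists, as points coloured by direction, with bars for the 95% interval. The tether list has 1 of 14 listed genes on the higher side, COG4, and the cargo receptor list 5 of 6.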

How the data were processed

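Total RNA of 3 control and 3 shikonin samples was made into libraries with the NEBNext Ultra kit, per the labels, and analysed here from a single table. Per the submitters' processing notes, fastp, HISAT2 2.0.5, DESeq2 and hg38 were used, with read counter and annotation not given in the sources used here. Its mean normalized count is a signal that the authors averaged over all libraries. Per the file headers, it also holds the authors' log2 fold change with standard error, Wald score, p-value and adjusted p-value. It holds 0 columns of per-sample values, so depth is unknown, and fits per sample could not be run.

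From these values folds, 95% intervals, implied group means and the number of genes tested were computed with Python 3.11.15, pandas 2.3.3, NumPy 2.4.6 and SciPy 1.17.1, checked on simulated data. No set test was made. GENCODE 29 (GRCh38) matched all 72 genes by Ensembl identifier, and the reference transcript is the longest APPRIS principal one. Exon overlap is reported above 5%. In each role the genes named were all those listed, or the 3 highest and 3 lowest where there were more than 6, with, among all 72 and in each direction, the 3 largest changes, the 3 smallest adjusted p and the 2 highest means, paralogs of these, and the highest and lowest of each partner list. Outside this rule, the remaining listed nexins were named, as were the genes marked above as chosen with their values in view. Genes and lists were chosen with earlier results of these data known.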

Additional observations from a re-analysis of the deposited data

How the results depend on the processing

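Of the 30 higher and 42 lower genes, 27 and 41 were left at an adjusted p below 0.001. The same counts were left at a mean of at least 100 normalized counts. Without VPS72 and SEC14L1, 29 were higher and 41 lower. These settings drop few genes, so the counts could not move far. All 72 genes are protein-coding, so a restriction to such genes changes nothing. With at least 2-fold required, 14 were higher and 27 lower, and the median log2 fold change was -1.21. With implied totals set equal, 15 were higher and the median was -1.13, while the 42 lower genes stayed lower by construction. Leaving out the 24 genes that share over 5% of exon bases with another gene or have a near-identical copy, an alternative added after seeing the data, left 19 higher and 29 lower, with a median of -0.94. The 2-fold and exon-sharing alternatives hold fewer genes by construction. With equal totals no gene could change sign, because the shift of 0.39 is smaller than any listed log2 fold change. VPS72, AP1S1, TMED1, TMED3, SNX5, SNX7, SNX17, AP3S1, AP4B1, VPS25, VPS37B, VPS51, COPZ1, TRAPPC1 and SEC11C no longer passed the fold threshold. No paired analysis was possible because the table holds no per-sample values, and leaving out single libraries was not run for that reason. Genes that would enter as lower under another scaling are not held. The 4 genes with a mean below 100 normalized counts, SEC31B, TRAPPC6A, VPS28 and VPS37D, have the largest standard errors of the log2 fold change among the 72.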
